A study of Rattus norvegicus with 12 samples.

Results

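The genes described here encode the extracellular proteases that cut the matrix around cells, together with their inhibitors and close relatives. They are the rows of the deposited rat gene tables whose symbol begins with Mmp, Timp, Adamts or Adamtsl followed by a digit, plus Plat, Plau and Plaur. That rule found 45 genes among 23760: 14 matrix metalloproteinases (MMPs), 4 tissue inhibitors of metalloproteinases (TIMPs), 19 ADAMTS proteases, 5 ADAMTS-like genes, the plasminogen activator genes Plat and Plau, and the urokinase receptor gene Plaur. RNA sequencing had been carried out on rat hippocampus, with 6 NC and 6 AS3h samples, in a series on cognitive impairment after prolonged underwater operation. The labels do not expand either abbreviation and give no strain, age, sex or duration, and no label names a knockdown. Separate animals are not stated either, and p-values therefore cover only sample-to-sample spread, which may be technical.

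The brain's extracellular matrix is rich in hyaluronan, proteoglycans such as aggrecan and brevican, and basement membrane around vessels. Plasminogen activators convert plasminogen to plasmin, which degrades matrix and can activate MMP precursors. MMPs cut collagens and many surface proteins, ADAMTS enzymes cut proteoglycans and procollagens, and TIMPs bind and block the active site of MMPs and of some ADAM and ADAMTS enzymes. In hippocampus, tissue plasminogen activator and the gelatinase MMP9 are known for their roles in synaptic plasticity.

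Values are normalised read counts (reads divided by the authors' factor for the library), and changes are log2 fold changes, AS3h over NC, on the log2(value + 1) scale with their standard errors. On that scale changes of genes with few reads can be understated, or overstated where some libraries had 0 reads. Of the 45 genes, 41 reached a value of at least 1 in at least 6 of the 12 libraries and were tested, with 107 to 35043 reads over all libraries (median 1540). Reads assigned to genes ran from 29615243 in AS3h 3 to 38106489 in NC 2, and 3 reads corresponded to a CPM of 0.0787 to 0.101. All 12 hippocampal neuron markers checked, among them Prox1, Wfs1 and Slc17a7, had reads enough to be tested, with summed values of 177485 to 205317 in NC and 183866 to 220233 in AS3h. With limma 1 of the 12 rose (Slc17a7, adjusted p = 0.0318) and 0 fell, and 5 had a log2 fold change above 0. Their mean log2 level was 12.8 ± 0.15 in NC and 12.7 ± 0.11 in AS3h (two-sided exact permutation p = 0.134, n = 6 each). Libraries stood apart in markers of other tissue. Choroid plexus markers summed to 3333 to 5314 in NC and to 3976 to 6099 in 4 AS3h libraries, but to 12620 in AS3h 4 and 95174 in AS3h 5. Enpp2 was the largest part of the NC sums, at 2870 to 3755. Ttr spread more widely, from 42.6 to 811 in NC and from 188 to 1144 in those 4 AS3h libraries. It was at 6360 in AS3h 4 and 61060 in AS3h 5. Meningeal fibroblast markers summed to 11341 in AS3h 2, against 1599 to 3727 in the other 11 libraries. Blood cell markers summed to 9696 to 23473 in NC and 12562 to 39522 in AS3h, highest in AS3h 2. Of the cell type lists, microglia markers had the smallest p between groups, with a mean log2 level of 9.38 ± 0.14 in NC and 9.08 ± 0.12 in AS3h (two-sided exact permutation p = 0.00649, n = 6 each), and 2 of 12 fell with limma. Of 10 endothelial markers, 2 rose and 3 fell. The part of microglia and endothelial cells in the changes below was not tested. In bulk tissue, more cells of a type and more RNA per cell cannot be told apart.

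Of the 41 genes tested, 4 rose in AS3h (Plat, Timp3, Adamts1 and Adamts7), 2 fell (Mmp15 and Mmp16) and 35 did not pass (limma, Benjamini-Hochberg adjustment over 19050 genes, threshold 0.05). Among all genes tested, 9.26% passed, 5.04% as higher and 4.22% as lower. The members' share, 14.6%, rests on 6 genes. At an unadjusted p under 0.05 there were 12 of the 41, against 24.9% of all genes tested. Their median log2 fold change was -0.00297, against -0.00428 over all genes tested. In 4 of the 41, Plat, Timp3, Adamts7 and Mmp15, the 6 libraries of one group all lay on one side of the other group, as they did in 5.05% of all genes tested.

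**Figure D1:**
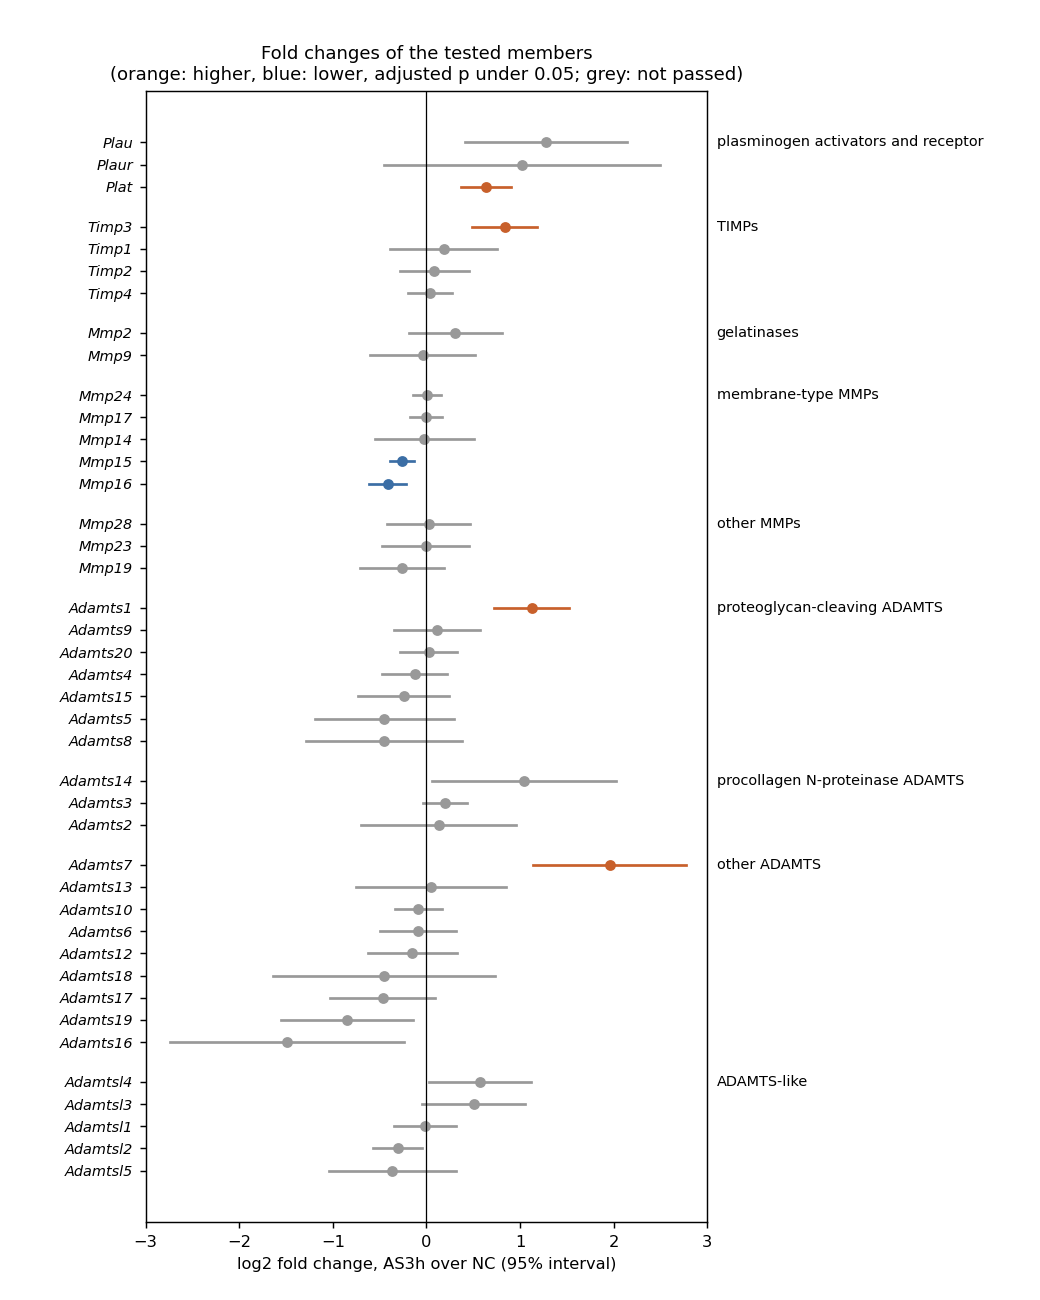
Log2 fold change, AS3h over NC, of the 41 tested genes (horizontal axis) with 95% intervals, grouped by role. Orange points are the 4 genes that rose, blue points the 2 that fell, and grey points the 35 that did not pass. The passing genes lie in 5 different role classes.

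RefSeq promoters of 4 of the 6 genes are shown because they are the sequence nearest to the measured changes. Each runs 300 bases 5′ to 3′ on the gene's strand, from 250 bases before the RefSeq start to 50 after it, on assembly GRCr8. This is not the build named in the submitters' notes. Capitals mark matches, on either strand, to promoter elements picked after the sequences had been seen. The letters TATAAA are those of an element that the basal transcription machinery can bind. The element with the letters CCAAT is bound by the factor NF-Y. The GC-rich element has the letters GGGCGG and is bound by Sp-family factors.
Adamts1, chr11:38427335-38427634, minus strand: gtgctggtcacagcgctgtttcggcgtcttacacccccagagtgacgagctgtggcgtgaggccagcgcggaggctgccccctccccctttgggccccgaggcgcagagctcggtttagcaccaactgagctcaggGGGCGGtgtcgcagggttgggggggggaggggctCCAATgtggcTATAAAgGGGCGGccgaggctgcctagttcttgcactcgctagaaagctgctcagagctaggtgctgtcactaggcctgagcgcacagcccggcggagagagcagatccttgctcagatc
Timp3, chr7:19459509-19459808, minus strand: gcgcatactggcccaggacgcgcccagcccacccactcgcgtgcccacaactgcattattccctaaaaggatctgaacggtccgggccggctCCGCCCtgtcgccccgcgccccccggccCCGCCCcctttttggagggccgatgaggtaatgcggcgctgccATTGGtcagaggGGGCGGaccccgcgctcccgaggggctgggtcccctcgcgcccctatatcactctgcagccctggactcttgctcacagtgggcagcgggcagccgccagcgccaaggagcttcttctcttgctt
Adamts7, chr8:99584279-99584578, plus strand: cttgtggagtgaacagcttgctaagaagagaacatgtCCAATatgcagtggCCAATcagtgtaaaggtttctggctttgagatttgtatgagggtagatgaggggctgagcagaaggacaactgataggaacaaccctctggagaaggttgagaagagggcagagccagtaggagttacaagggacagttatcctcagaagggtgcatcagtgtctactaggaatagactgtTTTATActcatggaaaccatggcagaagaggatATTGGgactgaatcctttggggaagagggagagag
Mmp15, chr19:9690951-9691250, minus strand: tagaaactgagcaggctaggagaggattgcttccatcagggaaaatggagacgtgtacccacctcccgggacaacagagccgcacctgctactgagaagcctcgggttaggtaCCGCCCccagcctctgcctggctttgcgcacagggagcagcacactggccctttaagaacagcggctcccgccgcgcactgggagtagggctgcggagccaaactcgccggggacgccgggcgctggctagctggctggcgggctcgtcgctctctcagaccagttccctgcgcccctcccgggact

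The Adamts1 and Adamts7 windows each held a TATAAA match, as did 14.2% of 33465 RefSeq promoters of the same length. These matches began at positions -70 and -18 from the RefSeq start, the Adamts7 match on the opposite strand. A CCAAT match in Adamts7 began at position 16, after the start. Whether any marked match is in use was not tested. GGGCGG was in the Adamts1, Timp3 and Mmp15 windows and in 33.1% of all promoters, and CCAAT was in the Adamts1, Timp3 and Adamts7 windows and in 37.5% of all. Of the 33 member promoters, 57.6% held GGGCGG, 27.3% held CCAAT and 24.2% held TATAAA. The Adamts1, Timp3 and Mmp15 windows had a GC content of 65.0%, 68.7% and 65.0%, and the Adamts7 window 46.7%, against a median of 51.7% over all promoters. The AP-1 motif TGANTCA was in none of the 4 windows. It was in 3 of 33 member promoters (Plaur, Mmp10 and Mmp12), or 9.09%, against 7.33% of all promoters. No member promoter held the palindromic glucocorticoid response motif, which was in 0.0149% of all promoters. A missing match says only that these letters are not in this window.

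Plat encodes tissue plasminogen activator, the main plasminogen activator released by neurons. It stood at 1373, 1718, 1633, 1674, 1536 and 1473 in NC 1 to 6, and at 3421, 3006, 2044, 2286, 1923 and 2240.4 in AS3h 1 to 6. Every AS3h library lay above every NC library, with AS3h 1 and AS3h 2 well above the rest. The means were 1568 ± 131 and 2487 ± 593 (SD, n = 6 each), a 1.56-fold rise (log2 fold change 0.64 ± 0.12, limma adjusted p = 0.00566).

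Plau, which encodes urokinase, the activator better known from migrating and inflammatory cells, showed the same library order at the top. Its values were 23.5, 31.9, 30.3, 37.1, 55.4 and 36.1 in NC, and 227, 175, 86.9, 79.6, 33.3 and 41.2 in AS3h 1 to 6. AS3h 5 and AS3h 6 fell within the NC range, and the other 4 lay above it. The gene did not pass (log2 fold change 1.28 ± 0.41, limma adjusted p = 0.0633, 95% interval 0.41 to 2.15). Of 12 fits that left out 1 library, it passed in 2, without AS3h 5 (1.54, adjusted p = 0.0204) and without AS3h 6 (1.48, adjusted p = 0.0403). Those are the AS3h libraries within the NC range, so passing without either follows from their values. In the other 10 fits it did not pass (adjusted p up to 0.118). Plau also passed without AS3h 4 and AS3h 5 (1.64, adjusted p = 0.0379), when 4.51% of all genes passed. It did not pass without AS3h 1 (0.998, adjusted p = 0.103), with the replicate block (adjusted p = 0.122), with the blood covariate (0.81, adjusted p = 0.317) or with blood and choroid plexus covariates (1.13, adjusted p = 0.22). Across the 12 libraries, deviations of Plat and Plau from their group means correlated at 0.81 (Pearson), the highest of 21 pairs among the 6 genes that passed and Plau. That value is a description over libraries that share their scaling. Plaur, the cell surface receptor of urokinase, had 49 reads in NC and 58 in AS3h, and it changed by 1.03 ± 0.69 on the log2 scale without passing (adjusted p = 0.388). Its mean values were closer, at 7.11 in NC and 9.55 in AS3h, and 2 NC libraries were at 0.

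**Figure D2:**
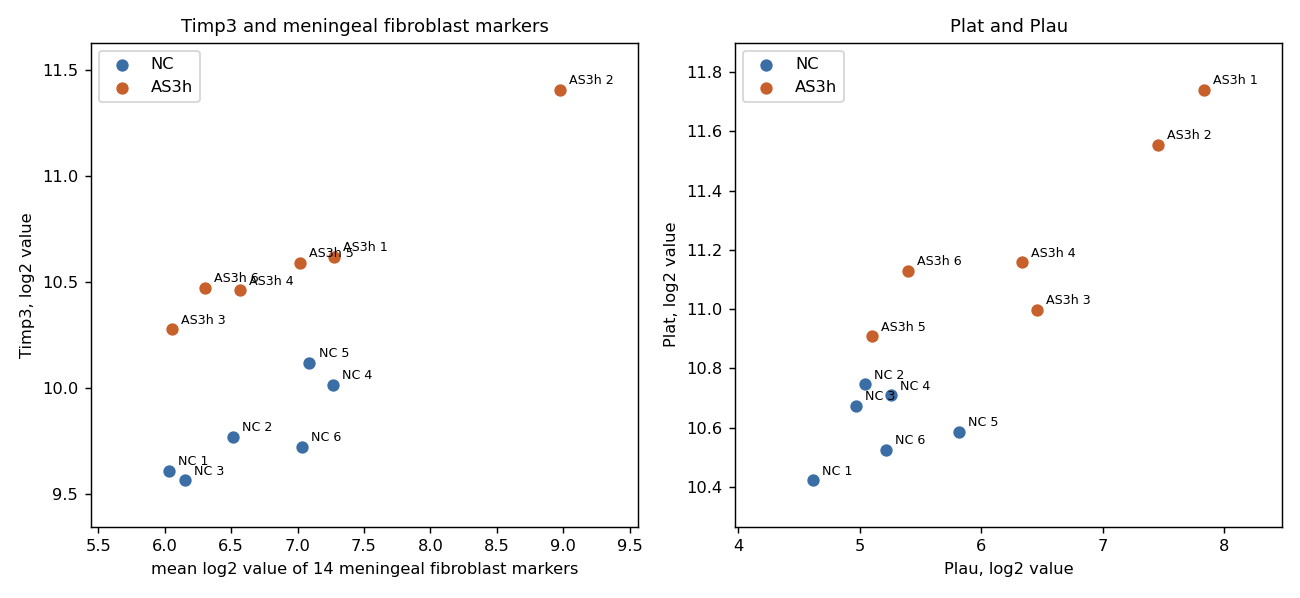
Left, log2 value of Timp3 against the mean log2 value of 14 meningeal fibroblast markers. Right, log2 value of Plat against Plau. Each point is 1 library, blue for NC and orange for AS3h. AS3h 2 is farthest to the right on the left panel, and AS3h 1 and AS3h 2 are highest on both axes of the right panel.

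Of the genes that act with the plasminogen activators, 3 that did not pass are described. Plg, the plasminogen gene itself, rested on 27 NC reads and 68 AS3h reads, with 3 NC libraries at 0. It was at 1.72 ± 0.71 on the log2 scale (adjusted p = 0.146), with mean values of 4.11 in NC and 10.8 in AS3h. Serpine2, encoding the brain protease inhibitor nexin-1, stood at 4671 ± 239 and 4602 ± 299 (log2 fold change -0.023 ± 0.052, adjusted p = 0.837). Lrp1, the endocytic receptor that clears activator and inhibitor complexes, was at 0.04 ± 0.06 (adjusted p = 0.723).

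Among the inhibitors of metalloproteinases, Timp3 was the only one of 4 to pass. Its product binds to the matrix and inhibits MMPs, ADAM17 and the aggrecanase ADAMTS enzymes. Timp3 stood at 781, 873, 758, 1036, 1113 and 845 in NC 1 to 6, and at 1573, 2717, 1242, 1410.5, 1543 and 1421 in AS3h 1 to 6. The groups did not overlap, and AS3h 2 was far above the other AS3h libraries. The rise was 1.79-fold (log2 fold change 0.84 ± 0.16, limma adjusted p = 0.00604), and 0.68 without AS3h 2 (adjusted p = 0.00148).

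Timp3 varied with markers of several other cell types. Of 10 lists, the correlation of deviations from the group means was highest with the meningeal fibroblast markers, at 0.95 (Pearson) and 0.90 (Spearman) over 12 libraries, and at 0.82 without AS3h 2 and AS3h 3, the libraries farthest from the median of the markers. With mural cell, neutrophil and blood cell markers it was 0.85, 0.63 and 0.56 (Pearson), and 0.42, 0.48 and -0.12 without the libraries farthest from the median of each, AS3h 2 among them in all 3. The meningeal marker mean itself was 6.68 ± 0.52 in NC and 7.03 ± 1.05 in AS3h on the log2 scale (two-sided exact permutation p = 0.548, n = 6 each), and 0 of its 14 genes passed with limma or had an unadjusted p under 0.05. With the meningeal marker mean as a covariate, added after the data were seen, Timp3 was at 0.71 ± 0.07 (limma adjusted p = 6.9e-05). In that fit 11.1% of all genes passed. A covariate that varies this closely with Timp3 within groups lowers its standard error by itself, so that p is no separate support. The part of meningeal tissue in the Timp3 values was not tested. In the RefSeq gene table of GRCr8, Timp3 lies inside the span of Syn3, a synapsin gene, as Timp1 and Timp4 do in Syn1 and Syn2. Syn3 had a log2 fold change of -0.30 ± 0.11 (adjusted p = 0.113).

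The other inhibitors did not pass. Timp1, the injury-inducible member, was at 63.9, 44.0, 55.9, 84.6, 55.4 and 61.0 in NC and at 78.4, 166, 55.4, 50.1, 50.5 and 53.4 in AS3h, so that AS3h 2 alone lay above the NC range. Its log2 fold change of 0.18 ± 0.27 became -0.071 without AS3h 2 (adjusted p = 0.724 and 0.856). Timp2, which also helps MMP14 to activate MMP2, was at 2684 ± 776 and 2808 ± 543 (log2 fold change 0.09 ± 0.17, 95% interval -0.28 to 0.45). Timp4 was at 405 ± 38.9 and 419.6 ± 66.8 (log2 fold change 0.04 ± 0.11, 95% interval -0.19 to 0.27).

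**Figure D3:**
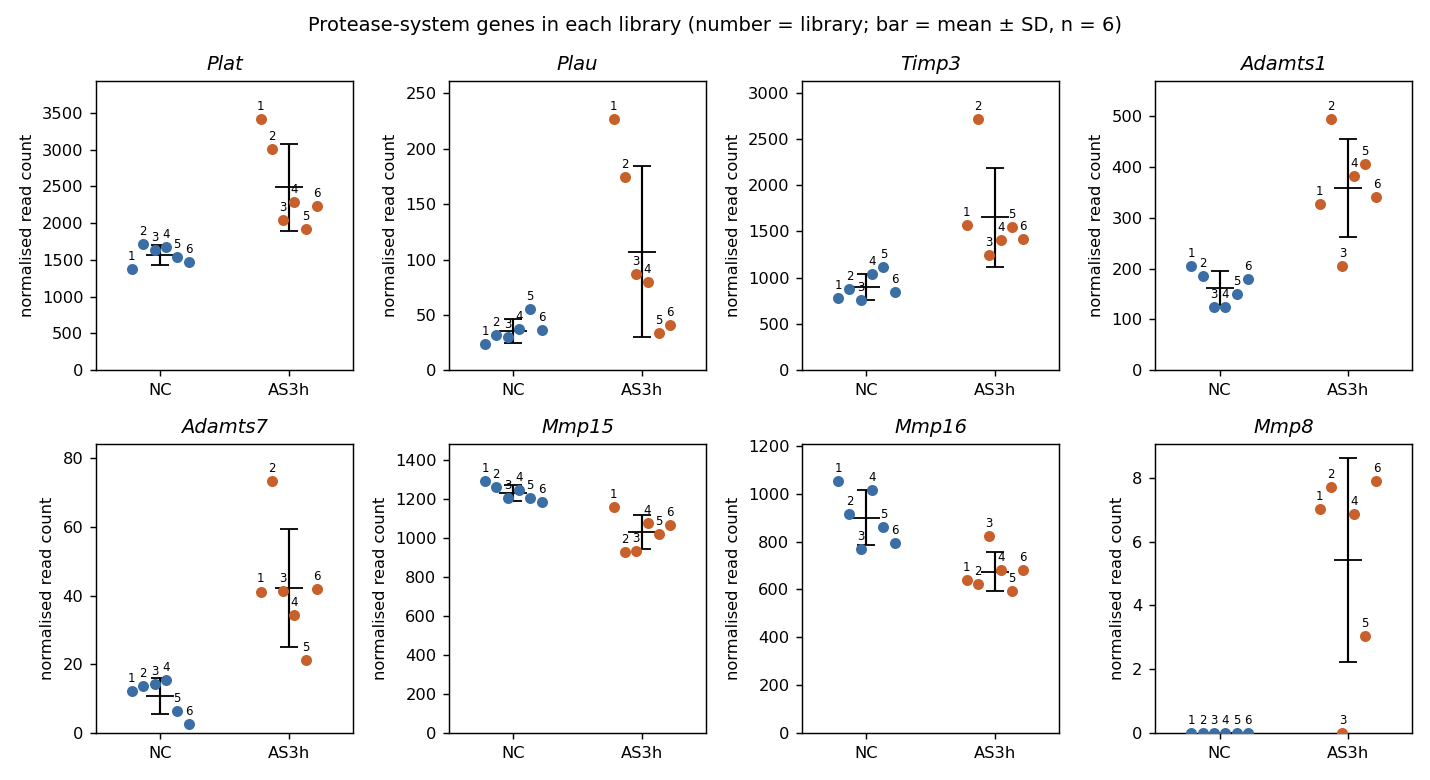
Normalised read count of 8 genes in each library (points, numbered by library; vertical axes start at 0), with the mean ± SD of 6 libraries per group. AS3h lies above NC in all libraries for Plat, Timp3 and Adamts7, and below in all libraries for Mmp15.

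Of 10 MMP genes tested, 0 rose and 2 fell, where 5.04% and 4.22% of all genes tested did. Both are among the 5 membrane-type genes tested, whose products sit on the cell surface and cut matrix next to it. Mmp15, encoding MT2-MMP, was at 1288, 1260.1, 1202, 1243, 1204 and 1185 in NC and at 1158, 928, 932, 1075, 1018 and 1063 in AS3h. All AS3h values were below all NC values, by a small margin at AS3h 1. The group means were 1230.4 ± 39.9 and 1029 ± 89.0, a log2 fold change of -0.26 ± 0.06 (limma adjusted p = 0.0151).

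Mmp16, encoding MT3-MMP, was at 1052, 914, 768, 1015, 859 and 793 in NC and at 641, 622, 824, 683, 595 and 683 in AS3h. AS3h 3 lay within the NC range and the other 5 below it. The fall was 1.33-fold (log2 fold change -0.41 ± 0.09, limma adjusted p = 0.0134), but Mmp16 did not pass without AS3h 4 and AS3h 5 (-0.38, adjusted p = 0.0652). The other 3 membrane-type genes, Mmp14, Mmp17 and Mmp24, did not pass, at -0.022 ± 0.25, -0.00297 ± 0.08 and 0.01 ± 0.07 on the log2 scale, and for Mmp24 the 95% interval ran from -0.14 to 0.16.

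The gelatinase genes did not pass. Mmp9, whose product is released at synapses during activity, ranged from 75.7 to 264 in NC and from 108 to 210.3 in AS3h, and its log2 fold change was -0.04 ± 0.26 (adjusted p = 0.95, 95% interval -0.60 to 0.52). Mmp2 was at 157 to 211 in NC and at 129 to 228 in 5 AS3h libraries, with 478 in AS3h 5. That library was highest in both choroid plexus and oligodendrocyte markers. AS3h 4, next in choroid plexus markers, had Mmp2 at 224. The part of either tissue in the Mmp2 values was not tested. The log2 fold change of Mmp2 was 0.31 ± 0.23 (adjusted p = 0.445) and 0.015 without AS3h 4 and AS3h 5 (adjusted p = 0.973).

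Mmp8, Mmp10, Mmp12 and Mmp21 had too few reads for the filter. Mmp8 encodes the collagenase stored in neutrophil granules. It had 0 reads in all 6 NC libraries and 34 in AS3h, at normalised values of 7.04, 7.71, 0, 6.88, 3.03 and 7.89 in AS3h 1 to 6. Against a floor of 3 reads over the NC group it was 12.2-fold higher. That value allows for counting error in NC only and takes the 34 AS3h reads as exact. With no filter on low values, when 6.27% of 23760 genes passed with limma, Mmp8 was among them (log2 fold change 2.38). It entered that fit through its AS3h reads alone, and its NC values, all 0, had no spread. That call is therefore no separate support for a rise. Beside it, 7 of the 10 neutrophil markers listed were tested, of which 0 rose and 1 fell, and 6 had a log2 fold change above 0 (median 0.94). Their mean log2 level was 2.12 ± 0.38 in NC and 2.79 ± 0.63 in AS3h (two-sided exact permutation p = 0.0606, n = 6 each). Csf3r, a receptor gene with the most reads of the list, was the one that fell, from a mean of 91.2 to 54.8 (limma adjusted p = 0.0186). The summed values of the 9 listed genes found, with Csf3r the largest, ran from 85.5 to 154 in NC and from 72.4 to 126 in AS3h. S100a8 and S100a9 had 27 and 64 reads in NC and 65 and 83 in AS3h. The part of blood cells in the Mmp8 reads was not tested. Mmp10 had 8 reads, all in NC, Mmp12 had 8, all in AS3h, and Mmp21 had 10 and 4.

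Of 19 ADAMTS protease genes, 2 rose and 0 fell, so that 10.5% passed, against 9.26% of all genes tested. Adamts1, whose product cuts aggrecan and versican, was at 206, 185, 124, 124, 150.3 and 180.3 in NC, and at 327, 495, 205, 381, 406 and 340.0 in AS3h 1 to 6. AS3h 3 fell just under the highest NC library and the other 5 lay above it. The rise was 2.18-fold (log2 fold change 1.12 ± 0.19, limma adjusted p = 0.00228), the smallest adjusted p of the set. Of all genes tested, those whose log2 values followed it most closely over the 12 libraries included Cdc25a and Txndc11, at Pearson correlations of 0.97 and 0.94. Group means were not removed for these values. Both genes also rose (log2 fold change 0.52 and 0.31, limma adjusted p = 0.0138 and 0.00299), and a shared group difference alone raises such a correlation.

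Adamts7 encodes a protease known to degrade cartilage oligomeric matrix protein in vascular and joint tissue. It had the largest fold change of the 41 genes from 71 reads in NC and 259 in AS3h. It stood at 12.2, 13.8, 14.2, 15.5, 6.40 and 2.58 in NC and at 41.2, 73.3, 41.3, 34.4, 21.2 and 42.1 in AS3h, with no overlap. The rise was 3.89-fold (log2 fold change 1.96 ± 0.38, limma adjusted p = 0.00575).

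The other proteoglycan-cutting ADAMTS genes did not pass. Adamts5, which neighbours Adamts1 on chromosome 11 in the RefSeq gene table, ranged from 30.3 to 64.7 among NC libraries and from 8.84 to 56.6 among AS3h libraries, a change of -0.45 ± 0.35 on the log2 scale (adjusted p = 0.463). Adamts4, an aggrecanase found in oligodendrocytes, was at 919 to 1319 in NC and at 783 to 1198 in 5 AS3h libraries, with 1732 in AS3h 5 (log2 fold change -0.12 ± 0.16, adjusted p = 0.693). Oligodendrocyte markers were also highest in AS3h 5, summing to 616936 against 343675 to 437644 in the other libraries, and their part in the Adamts4 values was not tested. Adamts15 was at 401 in AS3h 2 and 121 to 188 in the other AS3h libraries, against 164 to 245 in NC. Its log2 fold change was -0.24 (adjusted p = 0.555), and without AS3h 2 it passed as lower at -0.48 (adjusted p = 0.0386).

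The procollagen-processing genes Adamts2, Adamts3 and Adamts14 did not pass either, at 0.13 ± 0.39, 0.20 ± 0.11 and 1.04 ± 0.46 in log2 terms (adjusted p = 0.879, 0.275 and 0.177). Among the remaining ADAMTS genes Adamts16, Adamts17 and Adamts19 stood at -1.49 ± 0.59, -0.47 ± 0.26 and -0.85 ± 0.33 on the log2 scale (adjusted p = 0.129, 0.289 and 0.125), and Adamts10 was at -0.08 ± 0.12 (adjusted p = 0.713). Adamts16 rested on 120 reads in NC and 41 in AS3h. Of the 5 ADAMTS-like genes, which lack a protease domain and sit in the microfibril matrix, 0 passed, and the log2 fold changes of Adamtsl2, Adamtsl3 and Adamtsl4 were -0.31 ± 0.12, 0.51 ± 0.26 and 0.57 ± 0.25 (adjusted p = 0.132, 0.242 and 0.177).

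**Figure D4:**
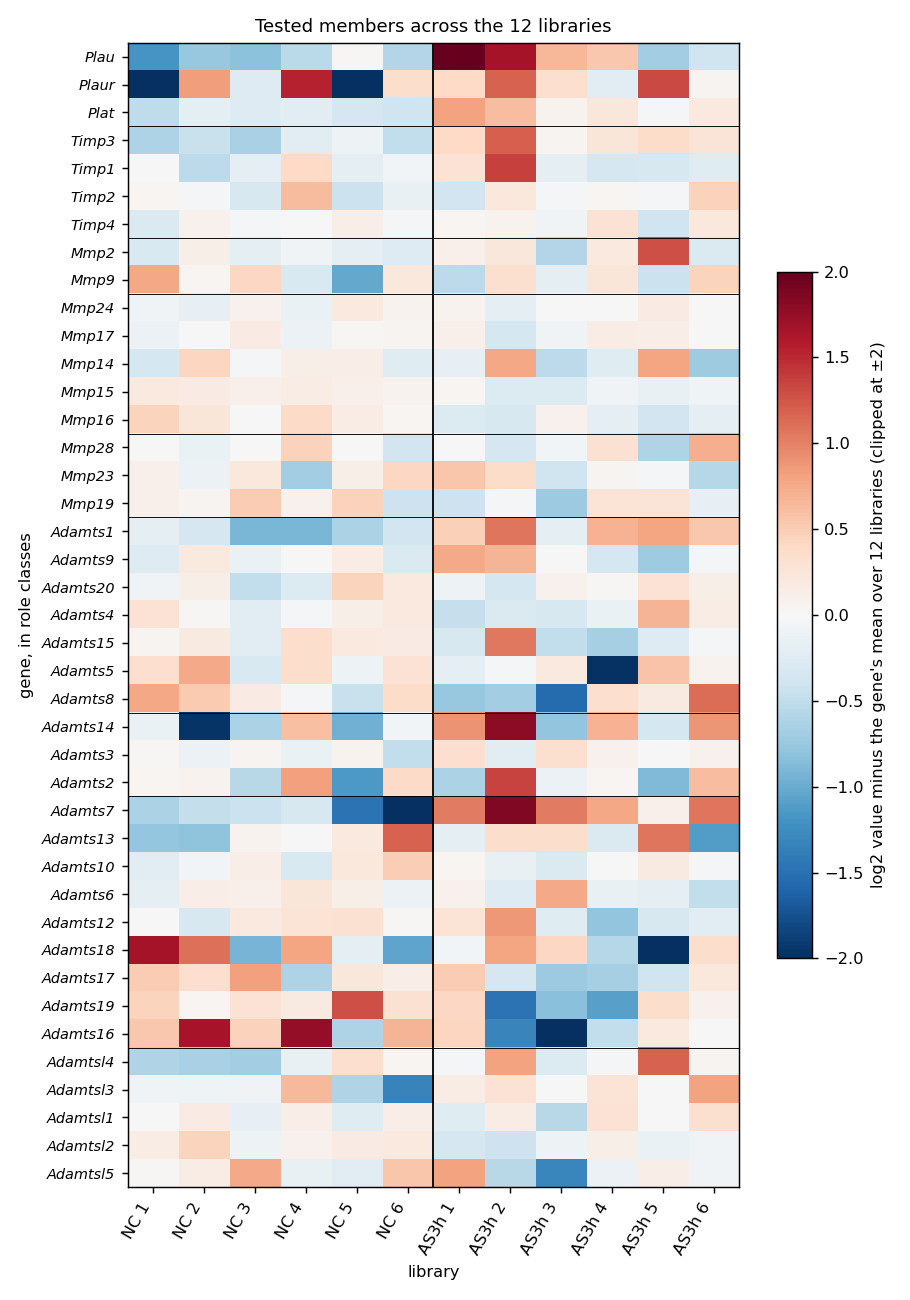
Log2 value of each of the 41 tested genes (rows, in role classes) in the 12 libraries (columns, NC left of the line), minus the gene's mean over the libraries. AS3h 2 is high for Plau, Timp3, Timp1, Adamts14 and Adamts7, and AS3h 5 for Mmp2.

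Other genes that act with these enzymes were taken from lists chosen with earlier results of these data known. Of 16 regulators and activators of metalloproteases, 3 rose, 0 fell and 13 did not pass (18.8% passed, against 9.26% of all genes tested). Furin, the convertase that activates membrane-type MMPs and ADAMTS precursors, rose from 1162 ± 57.1 to 1487 ± 159 (log2 fold change 0.35 ± 0.07, limma adjusted p = 0.00639). Papln, encoding papilin, a matrix protein related to the ADAMTS family, rose from 50.5 ± 8.66 to 92.7 ± 25.2 (log2 fold change 0.84 ± 0.19, limma adjusted p = 0.0128) but did not pass without AS3h 4 and AS3h 5 (0.63, adjusted p = 0.0748). The third was Lcn2, whose product can bind MMP9. Reck, a membrane-anchored MMP inhibitor gene, was at -0.18 ± 0.12 (adjusted p = 0.377).

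Of 10 ADAM protease genes, 1 rose, 1 fell and 8 did not pass. Adam15, a membrane disintegrin and protease, rose from 1483 ± 65.6 to 2020.4 ± 145 (log2 fold change 0.44 ± 0.05, limma adjusted p = 0.000284). Adam10, the main alpha-secretase of neurons, fell from 2311 ± 151 to 1782 ± 201 (log2 fold change -0.38 ± 0.07, limma adjusted p = 0.00566). For both, the groups did not overlap. Among 14 proteoglycans, link proteins and related substrates, 1 rose (7.14%), 0 fell and 13 did not pass. It was Acan, encoding aggrecan, which rose from 267 ± 35.5 to 381 ± 55.8 (log2 fold change 0.51 ± 0.12, limma adjusted p = 0.0143). Acan did not pass without AS3h 4 and AS3h 5 (0.48, adjusted p = 0.0683). The lecticans Ncan, Bcan and Vcan were at 0.04 ± 0.05, 0.10 ± 0.07 and -0.11 ± 0.13.

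The 6 calls were the same in each of the 12 fits that left out 1 library, but none of them held when the mean log2 levels of blood cell and choroid plexus markers were both covariates. Then 0 of the 41 genes passed with limma, 11 had an unadjusted p under 0.05, and 1.75% of all genes passed. The log2 fold changes were 0.87 for Adamts1, 0.50 for Plat, 1.77 for Adamts7, 0.53 for Timp3, -0.26 for Mmp15 and -0.25 for Mmp16 (adjusted p = 0.086, 0.0576, 0.0895, 0.146, 0.136 and 0.266). With choroid plexus markers alone (6.37% of all genes passed) Mmp16 gave way to Plau, and with the replicate number as a block (6.8%) the 6 calls held. With blood markers alone, when 4.28% of all genes passed, Plat, Timp3 and Adamts1 passed, and Plat was at 0.43 against 0.64 without the covariate. Deviations of Plat correlated with those of the blood marker mean at 0.70 (Pearson) and 0.69 (Spearman) over 12 libraries, and at 0.57 without AS3h 2 and AS3h 3. The blood marker mean was 6.27 ± 0.43 in NC and 6.99 ± 0.73 in AS3h (two-sided exact permutation p = 0.0671, n = 6 each), and the choroid plexus mean 4.94 ± 0.66 and 6.41 ± 2.13 (p = 0.119). Lcn2, Papln, Adam10 and Acan likewise did not pass with both covariates (adjusted p = 0.148, 0.123, 0.0582 and 0.0823). What part the amount of blood or choroid plexus had in these differences was not tested.

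**Figure D5:**
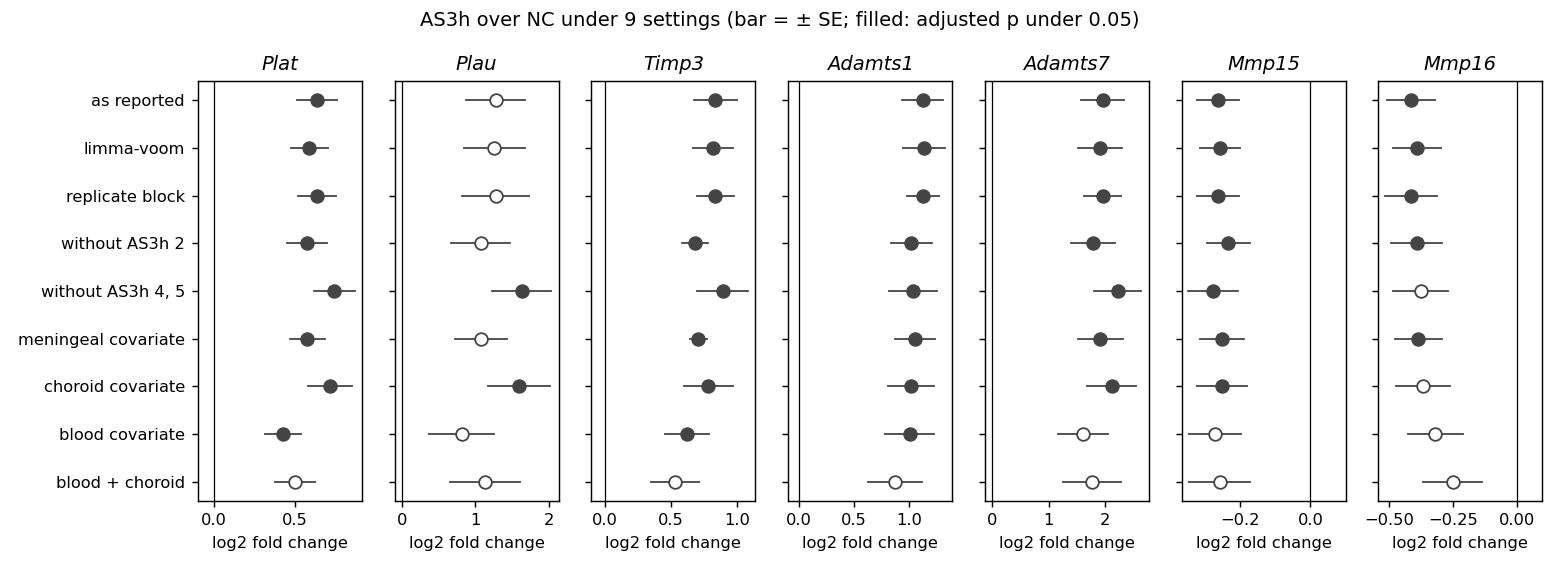
Log2 fold change ± SE of 7 genes (panels) under 9 settings (rows); filled points have an adjusted p under 0.05. All points of a gene lie on the same side of 0, and the 6 genes that passed as reported are all open in the bottom row, with blood and choroid plexus covariates.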

How the data were processed

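Strand-specific libraries were made from rat hippocampus (6 NC, 6 AS3h), per the labels' protocols. STAR, FastQC 0.11.5 and build mRatBN7.2 are listed, per the submitters' processing notes. The counting program, its strand setting and the annotation were not found in these sources, so overlapping genes can share reads. The deposited values are on a log2 scale: each is a gene's reads over the library's factor, plus 1, then logged. Undoing this gave whole numbers (tolerance 0.02 read) for 100% of values.

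Limma 3.58.1 in R 4.3.3 (trend and robust empirical Bayes) was fitted to the deposited log2 values of 19050 genes with a value of at least 1 in at least 6 libraries, with the group as the only term. Named genes were all that passed, the 10 next by p, the highest of each role class, a fixed set (among them the TIMPs, plasminogen activators and gelatinases), and up to 4 of each pathway list. Adamts2, Adamts15, Mmp8, Mmp17, Syn3, Plg, Serpine2, Lrp1, Reck, S100a8, S100a9 and the lecticans other than Acan were chosen after their values were seen. So were Enpp2 and Ttr. A few genes chosen by this rule are left out of the text. Members and lists were chosen with earlier results of these data known.

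Same-numbered libraries did not deviate together (correlations -0.015 to 0.0274), so numbers were not used as pairs. No 2 libraries were duplicates: the most similar pair had a chi-square, over its degrees of freedom, of 11.9. Steps were tested on simulated data. Alternatives are given below. Promoters came from a RefSeq table that matched 33 of 45 genes. Plots used matplotlib 3.10.9 (Python 3.11.15).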

Additional observations from a re-analysis of the deposited data

Results flagged for a closer look

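In 8 of 82 groups of 6 libraries (41 genes in 2 groups), 1 library lay far from the others on the log2 scale. Chance flags about 1 group in 20. Of the 8, 3 were in AS3h 2: Timp3 at 2717 (others 1242 to 1573), Timp1 at 166 (others 50.1 to 78.4) and Adamts15 at 401 (others 121 to 188). AS3h 2 was also the library with the most meningeal fibroblast marker reads. In AS3h 4, Adamts5 was at 8.84 against 33.2 to 56.6. In AS3h 6, Adamtsl3 was at 198 against 112 to 138. Among NC libraries, Timp4 was at 335 in NC 1 (others 403 to 447), Adamts19 at 116 in NC 5 (others 48.3 to 64.8) and Adamts3 at 546 in NC 6 (others 706 to 807).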

How the results depend on the processing

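The 6 members that passed stayed at 6 with limma-voom on recovered reads and with other library factors. They also stayed at 6 with a mean of at least 10, a pseudocount of 0.1 and the replicate block. The number was 7 with no filter, where Mmp8 came in through its AS3h reads alone, and 6 to 7 on leaving out 1 library. The shared replicate numbers gave a block fit that called the same 6. The count was 3 with the blood covariate and 0 with blood and choroid plexus covariates. With the choroid plexus covariate, or without AS3h 4 and AS3h 5, it was 6, with Plau in and Mmp16 out. The meningeal, blood-only and choroid-only covariates were added after the data were seen. Over all genes, 1764 passed, against 334 with both covariates, 816 with blood alone, 861 without AS3h 4 and AS3h 5, 1296 with the replicate block, 586 and 2835 at adjusted p of 0.01 and 0.10, and 1038 to 1795 on leaving out 1 library (1038 without NC 2, 1107 without AS3h 4).

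Signs changed only in genes that did not pass. With both covariates Timp2, Mmp2 and Timp1 were at -0.027, -0.17 and -0.24. With the choroid plexus covariate Mmp2, Mmp24, Mmp23 and Mmp9 were at -0.077, -0.00486, 0.031 and 0.071. With the blood covariate Adamts4, Timp1 and Timp4 were at 0.051, -0.25 and -0.052. Mmp9 was at 0.010 with the meningeal covariate and Mmp24 at -0.031 without AS3h 4 and AS3h 5. On leaving out 1 library Mmp24 ranged from -0.022 to 0.052, Adamts10 from -0.15 to 0.00483, Mmp23 from -0.15 to 0.10, Timp1 from -0.071 to 0.28, Timp4 from -0.012 to 0.13, Mmp9 from -0.25 to 0.11 and Mmp14 from -0.18 to 0.12. The cause was not tested. Genes with few reads, such as Plaur, have wide intervals (-0.45 to 2.50).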
